A study of Mus musculus with 9 samples.

Results

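Alveolar type 1 cells are the thin, flat epithelial cells that cover most of the gas exchange surface of the lung, and 10 genes that are widely used to recognise them were followed across all libraries. The genes Ager, Hopx, Aqp5, Pdpn, Rtkn2, Cav1, Clic5, Akap5, Emp2 and Igfbp2 were taken by symbol from a table of 18875 genes, in which all 10 were present. All 10 were also among the 13991 genes tested, which are those with 1 TPM or more in 3 or more libraries (TPM is a share of all transcripts that takes transcript length into account, so that levels of different genes can be compared). In the lung these cells arise during development and, after injury, from cuboidal alveolar type 2 cells, the producers of surfactant. Flattening and maintenance of the type 1 state are known to need the transcription factor NKX2-1 and the Hippo pathway co-activators YAP and TAZ with their TEAD partners. Several of the 10 genes are not exclusive to these cells in mouse lung: Cav1 is also abundant in capillary endothelium, Pdpn in lymphatic endothelium and mesothelium, and Aqp5 in airway glands.

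RNA of whole lung from wild-type (WT) BALB/c mice, an inbred strain, was sequenced in 9 libraries that form 3 equal groups. In the long-term PM2.5 group, fine particles from air were instilled intranasally in 6 doses of 10 mg/kg, with 1 dose every 3 days. The short-term PM2.5 group received a single dose of 10 mg/kg, and the PBS group is labelled as a long-term exposure to phosphate-buffered saline, so that the short-term group has no saline control of its own duration here. Neither the age and sex of the mice nor the time between the last dose and collection is given in the sources used here. Whether each sample was a different mouse is not stated in the labels, so the p-values rest on a spread between samples that may be technical. Since whole lung was measured, fewer type 1 cells and less RNA per cell cannot be told apart in any value below.

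The libraries differed in a way that bears on every short-term value. Relative to the PBS mean, the median log2 level of genes with long transcripts (from 4588 nt) minus that of genes with short ones (up to 1596 nt) was -1.41, -0.65 and -0.87 in short-term replicates 1, 2 and 3. It ran from -0.19 to -0.14 after long-term PM2.5, and from -0.05 to 0.04 with PBS. Values are therefore given as deposited and again as corrected values, from which the dependence of a library on the length and GC content of transcripts was subtracted. Read numbers cannot be recovered from TPM, so depth is unknown and no interval for counting error is given.

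Ager, which encodes the receptor for advanced glycation end products (RAGE), was by far the most abundant of the 10 genes. In PBS lungs it averaged 5107 ± 451 TPM (SD, n = 3), which ranked it at place 10 of 18875 genes. Hopx followed with 1058 ± 65.6 TPM, then Cav1 with 687 ± 24.1, Emp2 with 655 ± 61.3, Aqp5 with 356 ± 22.4, Igfbp2 with 329 ± 48.6, Clic5 with 233 ± 5.81, Pdpn with 136 ± 4.99, Rtkn2 with 90.2 ± 13.8 and Akap5 with 80.7 ± 7.71 TPM in the PBS group. In this order the PBS libraries of Cav1 and Emp2 overlapped, as did those of Aqp5 and Igfbp2 and those of Rtkn2 and Akap5, whereas the other neighbours were separated. Together the 10 genes took 0.652% to 0.712% of TPM in long-term libraries, 0.784% to 1.03% in short-term libraries and 0.824% to 0.924% in PBS libraries, a share that Ager dominates.

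**Figure D1:**
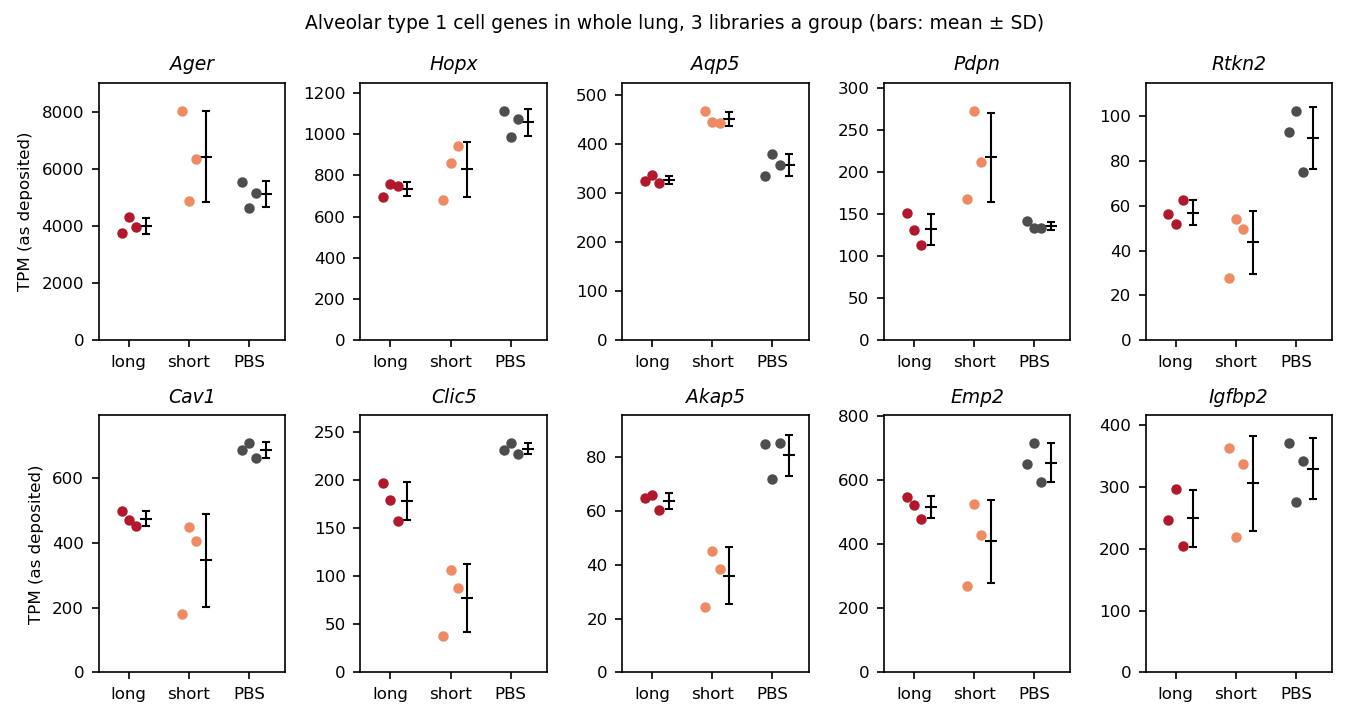
TPM of each of the 10 alveolar type 1 cell genes in whole lung after long-term PM2.5, short-term PM2.5 and PBS; each point is a library and the bar is the mean ± SD (n = 3). The long-term points lie below all PBS points for 7 genes, and short-term replicate 1, the leftmost short-term point, is the lowest of its group for 7 genes and the highest for 3.

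Transcription of the type 1 programme is represented in the list by Hopx, an atypical homeodomain protein that acts without binding DNA itself. Its start sites are shown because Hopx was the only member that passed the test for long-term PM2.5 against PBS as deposited. Both start-site windows in RefSeq (GRCm38.p6, minus strand, 250 bases before to 50 after the start) hold the letters CTCAAG or their reverse complement CTTGAG, a core sequence bound by NKX2-1, in capitals here. They lie at chr5:77115074-77115373 (upstream start) and chr5:77095218-77095517 (downstream start), and the match begins at position -112 in the upstream window and at 36 in the downstream window, counted from the start site.
Hopx upstream start: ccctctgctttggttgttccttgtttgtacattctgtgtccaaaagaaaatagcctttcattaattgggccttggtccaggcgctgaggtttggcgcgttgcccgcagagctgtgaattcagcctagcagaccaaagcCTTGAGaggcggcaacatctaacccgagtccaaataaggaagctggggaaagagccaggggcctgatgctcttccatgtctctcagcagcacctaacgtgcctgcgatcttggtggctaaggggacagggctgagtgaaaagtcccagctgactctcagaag
Hopx downstream start: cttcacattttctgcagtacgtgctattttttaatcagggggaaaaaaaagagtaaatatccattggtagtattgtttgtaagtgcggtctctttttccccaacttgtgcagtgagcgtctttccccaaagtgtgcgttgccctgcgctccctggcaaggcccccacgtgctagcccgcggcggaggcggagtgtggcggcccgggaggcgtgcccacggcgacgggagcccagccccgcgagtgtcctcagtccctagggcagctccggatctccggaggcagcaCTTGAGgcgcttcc
The windows of Ager, the most abundant member, and of Clic5, the member with the lowest short-term value relative to PBS, are given for comparison. They lie at chr17:34597600-34597899 and chr17:44188322-44188621, both on the plus strand. The Clic5 gene begins at chr17:44134762, so that its window shows an internal start and not the first one.
Ager: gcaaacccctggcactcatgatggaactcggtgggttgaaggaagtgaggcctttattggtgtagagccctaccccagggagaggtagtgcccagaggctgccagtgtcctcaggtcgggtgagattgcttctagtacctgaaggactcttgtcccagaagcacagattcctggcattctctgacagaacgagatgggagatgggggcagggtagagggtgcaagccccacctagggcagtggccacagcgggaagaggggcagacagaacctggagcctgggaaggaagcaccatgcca
Clic5: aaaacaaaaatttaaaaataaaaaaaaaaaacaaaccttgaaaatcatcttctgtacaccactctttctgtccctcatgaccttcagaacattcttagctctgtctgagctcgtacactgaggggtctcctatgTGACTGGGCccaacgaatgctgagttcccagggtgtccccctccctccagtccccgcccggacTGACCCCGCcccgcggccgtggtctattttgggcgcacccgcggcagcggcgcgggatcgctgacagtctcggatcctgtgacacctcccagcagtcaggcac
In the Clic5 window the capitals mark 2 matches to TGACNNNGC, the core of the antioxidant response element to which Nrf2 binds, and the Ager window held none of the motifs searched.

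Across the 9 members with a window in the RefSeq table (12 windows in all, Rtkn2 being the member without), 4 motifs were searched on both strands. CTCAAG was found in 3 windows of 2 genes, Hopx and Igfbp2, and it occurs in 15.9% of all 32851 promoter windows of this length. TGACNNNGC was found in 3 windows, those of Clic5, Emp2 and Igfbp2, against 12.4% of all windows. TGANTCA, the site of AP-1, was found in 1 window, that of Igfbp2, where it overlaps the CTCAAG match, against 7.81% of all windows. GGAATG, the TEAD core, was in 0 of the 12 windows and in 14.7% of all windows. All Igfbp2 matches lie in its downstream window (from chr1:72825137), and its window at the gene start (from chr1:72824230) held none. These are matches of letters only.

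The first comparison, of long-term PM2.5 with PBS, asked what repeated particle instillation did to these genes. All 10 had a lower mean after long-term PM2.5, by 0.06 (Pdpn) to 0.65 (Rtkn2) on the log2(TPM + 1) scale, and for 7 of them every long-term library lay below every PBS library, a separation found in 17.4% of all tested genes, while 0 members lay wholly above PBS, where 25.9% of all genes did. Only Hopx passed the limma test as deposited, with Benjamini-Hochberg adjustment over all genes and a threshold of 0.05, which makes 1 of 10 members lower and 0 higher, where 1.72% of all tested genes were called lower and 9.51% higher. After the length and GC correction 8 of 10 were lower and 0 higher, where 26.0% of all genes were called, 13.0% lower and 13.1% higher. The median change of the 10 genes was -0.37 as deposited, against 0.03 over all tested genes, and -0.45 corrected, against -0.07 over all genes.

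Hopx had 693, 758 and 748 TPM in the long-term libraries, against 1115, 986 and 1072 TPM in the PBS libraries. Every long-term value was lower than every PBS value. The log2 fold change was -0.53 ± 0.13 (SE; adjusted p = 0.0254 in limma), or 0.694 times the PBS level, and -0.77 ± 0.12 corrected (adjusted p = 0.0012). As deposited, Hopx no longer passed once any long-term or PBS library was omitted (adjusted p between 0.0507 and 0.117).

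Ager had 3735, 4306 and 3978 TPM after long-term PM2.5, against 5527, 4629.7 and 5164 TPM with PBS. The groups did not overlap, and the difference of -0.35 ± 0.18 did not pass as deposited (adjusted p = 0.294 in limma), while the corrected difference of -0.47 ± 0.12 did (adjusted p = 0.0173).

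Of the other genes whose products sit in the membrane, Cav1, the coat protein of caveolae, had 499.7, 473 and 454 TPM in long-term lungs, against 689, 710.2 and 662 TPM in PBS lungs. These values do not overlap, and the difference was -0.53 ± 0.27 as deposited (adjusted p = 0.300 in limma) and -0.67 ± 0.13 corrected (adjusted p = 0.00414). Emp2, a tetraspan membrane protein, had 549, 522 and 479 TPM in long-term lungs, against 652, 717 and 595 TPM in PBS lungs. It was also separated, at -0.34 ± 0.21 as deposited (adjusted p = 0.408 in limma) and -0.43 ± 0.11 corrected (adjusted p = 0.0167).

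Pdpn encodes podoplanin, a mucin-like glycoprotein of the apical membrane. It had 151, 131 and 113 TPM in long-term lungs, against 142, 133 and 133 TPM in PBS lungs. These ranges overlap, and it did not pass as deposited (-0.06 ± 0.17, adjusted p = 0.930 in limma; its sign turned to 0.05 without long-term replicate 3) or corrected (-0.29 ± 0.11, adjusted p = 0.0780). Aqp5, the apical water channel, had 323, 336 and 319 TPM in long-term lungs, against 333, 378 and 357 TPM in PBS lungs. It overlapped as well and did not pass (-0.13 ± 0.09, adjusted p = 0.550 in limma; -0.13 ± 0.13 corrected, adjusted p = 0.500).

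Among the genes of the cell cortex and of signalling, Rtkn2, a signalling protein of the rhotekin family, had 56.5, 51.9 and 62.6 TPM in long-term lungs, against 92.8, 102.5 and 75.3 TPM in PBS lungs. This is the largest difference among the 10 genes as deposited (-0.65 ± 0.22, adjusted p = 0.105 in limma; -0.72 ± 0.13 corrected, adjusted p = 0.00232). Clic5, which links membranes to ezrin and cortical actin, had 197, 179 and 158 TPM in long-term lungs, against 232, 239 and 228 TPM in PBS lungs (-0.39 ± 0.30, adjusted p = 0.556 in limma; -0.40 ± 0.13 corrected, adjusted p = 0.0456). Akap5 encodes a scaffold that anchors protein kinase A. It had 65.0, 65.9 and 60.3 TPM in long-term lungs, against 85.0, 71.8 and 85.4 TPM in PBS lungs (-0.33 ± 0.19, adjusted p = 0.384 in limma; -0.33 ± 0.10 corrected, adjusted p = 0.0355). The 3 genes shared the separation of the groups, without overlap in any of them.

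Igfbp2 encodes a secreted binding protein of insulin-like growth factors that marks mature type 1 cells in mouse. It had 246, 297 and 204 TPM in long-term lungs, against 371, 276 and 341 TPM in PBS lungs. The groups overlapped, and the difference was -0.41 ± 0.21 as deposited (adjusted p = 0.291 in limma) and -0.53 ± 0.15 corrected (adjusted p = 0.0251).

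How many members passed in this comparison depended on which libraries shared the estimate of spread. Without short-term replicate 1, which enters only through that estimate, 6 of 10 were called lower (Hopx, Rtkn2, Cav1, Clic5, Akap5 and Emp2), without short-term replicate 2 there were 2 (Hopx and Rtkn2), and with the long-term and PBS groups fitted alone there were 7. Leaving out any long-term or PBS library gave 0. Over all 13991 tested genes, 1005 were called lower without short-term replicate 1 and 403 without short-term replicate 2. With any long-term or PBS library left out, 49 to 157 of all genes were. The number of all genes called lower moved as well, from 241 as deposited to 1381 with the 2 groups alone and to 1157 after quantile normalization, under which 3 members were lower (Ager, Hopx and Rtkn2), while 1330, 2500 and 1426 genes were called higher in these 3 settings. Corrected and without short-term replicate 1, 9 were lower, all but Aqp5.

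**Figure D2:**
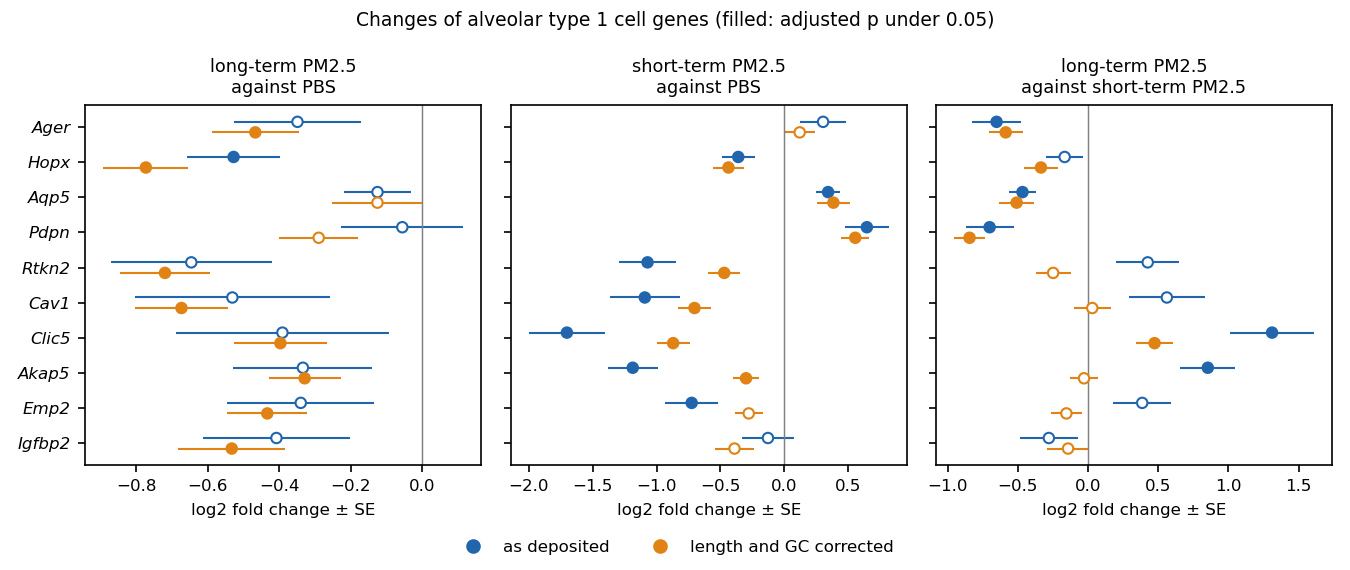
Log2 fold change ± SE of each gene in the 3 comparisons, as deposited (blue) and after the length and GC correction (orange); filled points had an adjusted p under 0.05 in limma. For long-term PM2.5 against PBS all points lie below 0, and for short-term PM2.5 against PBS the correction moves Clic5 from -1.70 to -0.87 and Akap5 from -1.19 to -0.30.

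Short-term PM2.5 against PBS asked what a single instillation did, with a control of the long schedule. The 10 genes split: Pdpn and Aqp5 rose, and Clic5, Akap5, Cav1, Rtkn2, Emp2 and Hopx fell. As deposited this makes 2 of 10 higher and 6 lower, where 11.7% of all tested genes were called higher and 40.3% lower, so that the share of lower members stands beside a large share of all genes. Corrected, 2 were higher and 5 lower, where 50.1% of all genes were called, 24.0% higher and 26.1% lower. The short-term libraries lay wholly below PBS for 6 members, as for 45.8% of all tested genes, and wholly above for 2 members, as for 14.5% of all genes. The split of all genes depended on the scaling, with 1632 called higher and 5636 lower as deposited and 3421 higher and 3885 lower after median-ratio scaling, under which 2 members were higher and 4 lower. The median change of the 10 genes was -0.54, against -0.34 over all tested genes, and corrected it was -0.35, against -0.02 over all genes.

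Pdpn had 167, 273 and 212 TPM in short-term lungs, against 142, 133 and 133 TPM in PBS lungs, with every short-term library above every PBS library. Its rise of 0.64 ± 0.17 (1.56-fold, adjusted p = 0.0109 in limma) remained at 0.55 ± 0.11 corrected (adjusted p = 0.00221). Aqp5 had 467, 444 and 441 TPM in short-term lungs, against 333, 378 and 357 TPM in PBS lungs, again without overlap. It rose by 0.34 ± 0.09 (adjusted p = 0.0132 in limma) and by 0.38 ± 0.13 corrected (adjusted p = 0.0278), but did not pass without PBS replicate 1 (adjusted p = 0.0620) or after quantile normalization (0.15, adjusted p = 0.207).

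Ager had 8039, 4857 and 6345 TPM in short-term lungs, against 5527, 4629.7 and 5164 TPM in PBS lungs. Short-term replicates 1 and 3 were above all PBS libraries and replicate 2 lay within their range. The difference did not pass as deposited (0.30 ± 0.18, adjusted p = 0.170 in limma) or corrected (0.12 ± 0.12, adjusted p = 0.433), and its direction was not stable: it was 0.49 without short-term replicate 2 (adjusted p = 0.0188), 0.28 with array weights (adjusted p = 0.00178), 0.65 after median-ratio scaling (adjusted p = 0.0787) and -0.30 after quantile normalization (adjusted p = 0.0314).

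Clic5 fell most, with 37.9, 106.8 and 87.7 TPM in short-term lungs, against 232, 239 and 228 TPM in PBS lungs. The fall was -1.70 ± 0.30 as deposited (0.308 times the PBS level, adjusted p = 0.00165 in limma) and -0.87 ± 0.13 corrected (adjusted p = 0.000413). Cav1 had 181, 450.4 and 408 TPM in short-term lungs, against 689, 710.2 and 662 TPM in PBS lungs, a fall of -1.09 ± 0.27 as deposited (adjusted p = 0.00832 in limma) and -0.70 ± 0.13 corrected (adjusted p = 0.00146). In both genes short-term replicate 1 was far below the other short-term libraries, and all 3 were below the PBS range. Without that library the fall was -1.26 for Clic5 and -0.68 for Cav1, and both passed (adjusted p = 0.000222 for Cav1).

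Akap5 had 24.3, 45.0 and 38.4 TPM in short-term lungs, against 85.0, 71.8 and 85.4 TPM in PBS lungs (-1.19 ± 0.19, adjusted p = 0.00120 in limma; -0.30 ± 0.10 corrected, adjusted p = 0.0291). Rtkn2 had 27.8, 54.0 and 49.5 TPM in short-term lungs, against 92.8, 102.5 and 75.3 TPM in PBS lungs (-1.07 ± 0.22, adjusted p = 0.00376 in limma; -0.47 ± 0.13 corrected, adjusted p = 0.00996). Emp2 had 270.0, 528 and 430.3 TPM in short-term lungs, against 652, 717 and 595 TPM in PBS lungs. Its fall of -0.73 ± 0.21 as deposited (adjusted p = 0.0147 in limma) was -0.28 ± 0.11 corrected, where it did not pass (adjusted p = 0.0574), nor did it without PBS replicate 2 (adjusted p = 0.0551). Without short-term replicate 1 the fall of Emp2 was -0.45 (adjusted p = 0.00967). None of these 3 genes overlapped with PBS.

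Hopx had 683, 862 and 944 TPM in short-term lungs, against 1115, 986 and 1072 TPM in PBS lungs. Its fall of -0.36 ± 0.13 (adjusted p = 0.0388 in limma) lay beside the median of all genes of -0.34 and was -0.01 after median-ratio scaling (adjusted p = 0.957), while the corrected value was -0.44 ± 0.12 (adjusted p = 0.0110). It did not pass as deposited with any long-term library, any PBS library or short-term replicate 1 left out (adjusted p from 0.0516 to 0.121), and it was -0.23 without short-term replicate 1. Igfbp2 had 363, 219 and 337 TPM in short-term lungs, against 371, 276 and 341 TPM in PBS lungs, which overlap (-0.13 ± 0.21, adjusted p = 0.613 in limma; -0.39 ± 0.15 corrected, adjusted p = 0.0505; its sign turned to 0.22 after median-ratio scaling and to 0.10 without short-term replicate 2).

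The 10 changes after short-term PM2.5 followed the length of the transcripts. The 5 members with the shortest transcripts, Igfbp2 (1149 nt), Hopx (1217 nt), Pdpn (1290 nt), Ager (1347 nt) and Aqp5 (1797 nt), had changes from -0.36 to 0.64. The 5 with the longest, Cav1 (2634 nt), Emp2 (3440 nt), Rtkn2 (3932 nt), Clic5 (5862 nt) and Akap5 (6685 nt), had changes from -1.70 to -0.73. Across the 10 genes, which share their libraries and are not independent, Spearman's rank correlation between change from PBS and length was -0.76 as deposited and -0.35 corrected after short-term PM2.5. After long-term PM2.5 it was 0.0061 as deposited and 0.24 corrected.

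**Figure D3:**
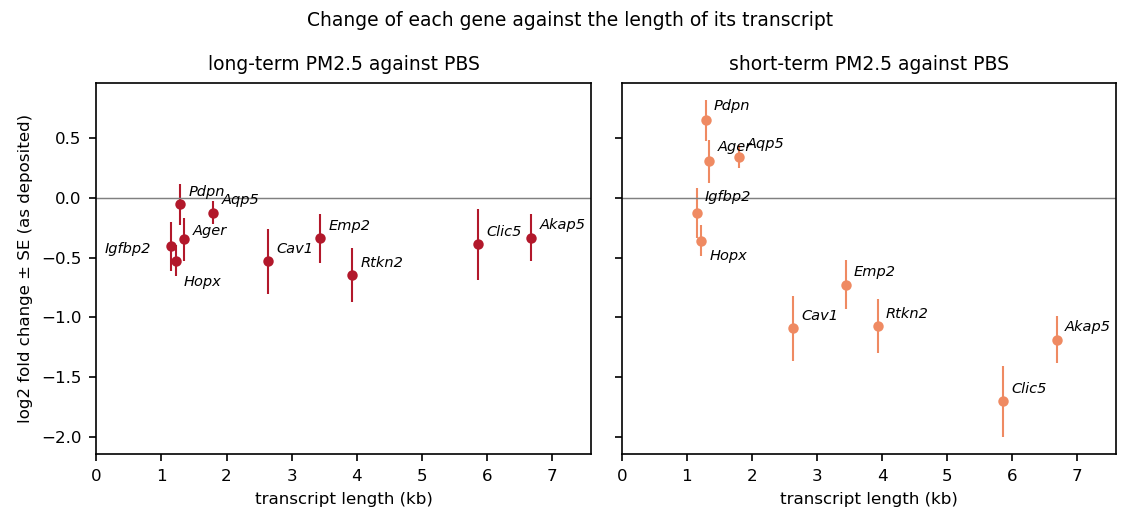
Log2 fold change ± SE of each gene as deposited against the length of its transcript in kb, for long-term PM2.5 against PBS (left) and short-term PM2.5 against PBS (right). After short-term PM2.5 the 5 longer transcripts lie at -0.73 or lower and the 5 shorter ones at -0.36 or higher, whereas after long-term PM2.5 all 10 lie between -0.65 and -0.06.

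Long-term against short-term PM2.5 compares repeated with single instillation directly, and it shares its libraries with the comparisons above. Ager, Aqp5 and Pdpn were lower after long-term than after short-term PM2.5, and Clic5 and Akap5 were higher. As deposited this makes 3 of 10 lower and 2 higher, where 50.5% of all tested genes were called, 7.08% lower and 43.4% higher. Corrected, 4 were lower and 1 higher, where 41.7% of all genes were called, 22.4% lower and 19.2% higher. The long-term libraries lay wholly below the short-term ones for 3 members, as for 9.94% of all tested genes, and wholly above for 3 members, as for 50.2% of all genes. Over all genes 6070 were higher and 991 lower as deposited, against 3762 higher and 2756 lower after median-ratio scaling, under which 2 members were higher and 4 lower. The median over the 10 genes was 0.11, against 0.41 over all tested genes, and corrected it was -0.20, against -0.03 over all genes.

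Pdpn averaged 132 ± 18.9 TPM in long-term lungs and 217 ± 53.1 TPM in short-term lungs (SD, n = 3 each), without overlap, a difference of -0.70 ± 0.17 (SE; adjusted p = 0.00862 in limma) and of -0.84 ± 0.11 corrected (adjusted p = 0.0003). Aqp5 averaged 326 ± 8.78 TPM in long-term lungs and 451 ± 14.3 TPM in short-term lungs, a difference of -0.47 ± 0.09 (adjusted p = 0.00391 in limma) and of -0.51 ± 0.13 corrected (adjusted p = 0.00938). Ager averaged 4006 ± 287 TPM in long-term lungs and 6414 ± 1592 TPM in short-term lungs, a difference of -0.65 ± 0.18 (adjusted p = 0.0133 in limma) and of -0.59 ± 0.12 corrected (adjusted p = 0.00367). Ager did not pass without long-term replicate 1 (adjusted p = 0.0516) or after quantile normalization (-0.09, adjusted p = 0.475).

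Clic5 averaged 178 ± 19.9 TPM in long-term lungs and 77.5 ± 35.6 TPM in short-term lungs, a difference of 1.31 ± 0.30 (adjusted p = 0.00642 in limma) that was 0.47 ± 0.13 corrected (adjusted p = 0.0144). Akap5 averaged 63.7 ± 2.99 TPM in long-term lungs and 35.9 ± 10.6 TPM in short-term lungs, a difference of 0.85 ± 0.19 (adjusted p = 0.00643 in limma) that was -0.03 ± 0.10 corrected (adjusted p = 0.839). Cav1, Rtkn2 and Emp2 had higher means after long-term PM2.5 as deposited, at 0.56, 0.43 and 0.39, and did not pass (adjusted p from 0.105 to 0.135). Corrected these were 0.03, -0.25 and -0.15, so that the sign of Rtkn2 and Emp2 turned. Without short-term replicate 1 the values as deposited were 0.15 for Cav1, 0.13 for Rtkn2 and 0.11 for Emp2 (adjusted p from 0.211 to 0.459). Without short-term replicate 2 all 3 passed as deposited (adjusted p from 0.0129 to 0.0297), as did Igfbp2 with a lower long-term value (-0.50, adjusted p = 0.0224). Hopx did not pass as deposited (-0.17 ± 0.13, adjusted p = 0.297) and did so corrected (-0.33 ± 0.12, adjusted p = 0.0430), as it did without short-term replicate 1 (-0.30, adjusted p = 0.0296), while quantile normalization gave 0.06.

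Within the short-term group the members also spread furthest. The coefficient of variation over the 3 short-term libraries was 46.0% for Clic5, 41.8% for Cav1 and 32.1% for Rtkn2, against 2.49%, 3.51% and 15.3% for the same genes in PBS libraries. Aqp5 was the exception, with 3.18% in the short-term group and 6.30% in the PBS group. In the long-term group the coefficients ran from 2.69% for Aqp5 to 18.6% for Igfbp2.

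Gene profiles most like those of 2 members over the 9 libraries were found by the root mean square difference of centred log2(TPM + 1) values, predicted genes left out. For Ager these were Fmc1 (0.067), Rps19bp1 (0.082), Cdc42ep5 (0.090), Pdlim7 (0.094) and Rnaseh2c (0.094), all closer than the nearest member, Aqp5 (0.21), and Clic5 was the most distant member (1.08). For Hopx they were Jdp2 (0.077), Ap4s1 (0.087), Hey1 (0.088), Robo4 (0.091) and Zfyve21 (0.098), and the nearest member was Emp2 (0.30).

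A second list of 18 genes used for type 1 cells had 0 members past the threshold for long-term PM2.5 against PBS as deposited (median -0.25). Corrected, 7 were lower and 0 higher (median -0.30). Over all tested genes 1.72% were called lower as deposited and 13.0% corrected. Vegfa, the growth factor with which type 1 cells supply capillaries, had 348, 412 and 344 TPM in long-term lungs, against 595, 502 and 520.0 TPM in PBS lungs, without overlap (-0.55, adjusted p = 0.0547 in limma; -0.72 corrected, adjusted p = 0.00183). For short-term PM2.5 against PBS 12 of the 18 were lower and 3 higher, and corrected 9 were lower and 4 higher, where 40.3% of all tested genes were called lower and 11.7% higher (26.1% and 24.0% corrected). Vegfa fell by 1.19 (adjusted p = 0.000531; -1.10 corrected), and Col4a3, a chain of the alveolar basement membrane, by 2.49 (adjusted p = 0.00129; -1.60 corrected). Krt7, a simple epithelial keratin, rose by 0.66 (adjusted p = 0.00416; 1.16 corrected).

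A list of 15 genes tied to regulation of the type 1 fate also holds targets of YAP such as Ccn1 and Ccn2. It had 0 genes past the threshold for long-term PM2.5 against PBS as deposited (median -0.37). Corrected, 6 were lower and 0 higher (median -0.40), where 13.0% of all genes were called lower (1.72% as deposited). After short-term PM2.5, 14 of the 15 were lower as deposited and 14 corrected, with medians of -1.26 and -0.77. Ankrd1 was the gene not called (-0.11, adjusted p = 0.723 in limma; 0.11 corrected, adjusted p = 0.575). Over all tested genes 40.3% were called lower as deposited and 26.1% corrected, with medians of -0.34 and -0.02. Yap1, which encodes YAP, had 16.6, 36.4 and 27.4 TPM in short-term lungs, against 64.7, 57.8 and 60.5 TPM in PBS lungs, a fall of 1.22 (adjusted p = 0.00190 in limma; -0.66 corrected, adjusted p = 0.000445). The regulators with the smallest p were Klf5 (-1.26; -0.77 corrected), Gata6 (-1.68; -1.37 corrected), Tead4 (-1.62; -1.42 corrected) and Wwtr1, which encodes TAZ (-1.41; -0.70 corrected). Nkx2-1 fell by 0.69 (adjusted p = 0.00461; -0.49 corrected), and had 113, 143 and 156 TPM in short-term lungs, against 227, 193 and 243 TPM in PBS lungs.

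Genes tied to single members moved in part with them. Of 6 further caveola genes, 1 was lower for long-term PM2.5 against PBS as deposited and 5 were corrected. Over all tested genes 1.72% were called lower as deposited and 13.0% corrected. Cavin1, which shapes caveolae with Cav1, had 196, 224 and 216 TPM in long-term lungs, against 327, 278 and 338 TPM in PBS lungs (-0.56, adjusted p = 0.0142 in limma). After short-term PM2.5, 5 of the 6 were lower (4 corrected), where 40.3% of all genes were called lower (26.1% corrected), with Cavin2 at -1.98 (-1.53 corrected) and Cav2 at -1.49 (-1.32 corrected). Of 6 ligands that RAGE, the Ager product, is known to bind, 3 were higher after long-term and 4 after short-term PM2.5, and 0 lower in either. Over all tested genes 9.51% and 11.7% were called higher in the same order. Hmgb1 passed in neither comparison (0.04 and -0.40), and S100a8 and S100a9 did not pass after long-term PM2.5. S100b, higher after long-term PM2.5, was low, at 3.51 TPM against 0.64 TPM in PBS lungs. Among the ligands that rose, S100a6 averaged 666 ± 27.0 TPM in long-term lungs, 1763 ± 337 TPM in short-term lungs and 430.2 ± 25.7 TPM in PBS lungs.

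Other cell types that share the alveolus or express some of the 10 genes were measured in the same libraries. Blood endothelial markers, 12 genes, had a summed level of 4144 to 4624 TPM in long-term libraries, 4810.4 to 5458 TPM in short-term libraries and 6041 to 6560 TPM in PBS libraries. For long-term PM2.5 against PBS 6 of the 12 were lower and 0 higher (11 lower and 0 higher corrected), with Pecam1 at -0.50 and Cdh5 at -0.55. Over all tested genes 1.72% were called lower in that comparison (13.0% corrected). For short-term PM2.5 against PBS 7 were lower and 0 higher (9 and 0 corrected), where 40.3% of all tested genes were called lower (26.1% corrected). The part of endothelium in the values of Cav1 and the other members was not tested. Mesothelial markers summed to 126 to 139 TPM in long-term, 101 to 148 TPM in short-term and 161 to 188 TPM in PBS libraries, and lymphatic endothelial markers to 357 to 383, 322 to 353 and 450.4 to 484 TPM in the same order, with Prox1 under 1 TPM in every library. The part of either in the level of Pdpn was not tested. For long-term PM2.5 against PBS 1 of 5 mesothelial markers was lower (4 corrected, median -0.59). Of 4 lymphatic endothelial markers tested 0 were lower (2 corrected, median -0.31), and 0 of either list were higher. Of 7 fibroblast and smooth muscle markers 2 were lower and 1 higher, as deposited and corrected (median -0.38 corrected). Over all tested genes 1.72% were called lower and 9.51% higher (13.0% and 13.1% corrected).

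Pan-epithelial markers summed to 1603 to 1724 TPM in long-term, 1599.9 to 2296 TPM in short-term and 884 to 1374 TPM in PBS libraries. The keratin gene Krt19 had the highest level of them, averaging 748, 1106 and 531 TPM in the same order, with 1461 TPM in short-term replicate 1. Epcam averaged 82.5, 55.7 and 57.5 TPM. As deposited it did not pass after long-term (0.52, adjusted p = 0.0880 in limma; 0.36 corrected, adjusted p = 0.0318) or short-term PM2.5 (-0.07, adjusted p = 0.762). For long-term PM2.5 against PBS 3 of the 7 pan-epithelial markers were higher and 0 lower (6 and 0 corrected). Over all tested genes 9.51% were called higher and 1.72% lower in that comparison (13.1% and 13.0% corrected). For short-term PM2.5 against PBS 5 of 7 were higher and 1, Cdh1, was lower (-0.64, adjusted p = 0.0310 in limma), and corrected 5 were higher and 0 lower. Over all tested genes 11.7% were called higher and 40.3% lower after short-term PM2.5 (24.0% and 26.1% corrected). The same shares of all genes stand beside the type 2, airway and leukocyte counts below. Krt8, a keratin that also marks cells in passage between the alveolar types, had 399.7, 409 and 415 TPM in long-term lungs, against 266, 204 and 289 TPM in PBS lungs (0.70, adjusted p = 0.00808 in limma). Of 10 alveolar type 2 cell markers 1 was higher and 0 lower for long-term PM2.5 against PBS (4 and 0 corrected, median 0.24). As deposited, the share called higher was near the 9.51% of all tested genes. For short-term PM2.5 against PBS 2 were higher and 2 lower, and corrected 5 were higher and 1 lower (median 0.22), with Sftpd, a surfactant protein gene, at 1.45 (adjusted p = 0.000172 in limma; 1.23 corrected). Their summed level was 49139 to 51745 TPM in long-term, 33198 to 39449 TPM in short-term and 45856 to 47036 TPM in PBS libraries. Most of this sum was Sftpc, the gene of surfactant protein C, which averaged 37560 TPM in long-term, 22759 TPM in short-term and 35437 TPM in PBS libraries. Sftpc differed by 0.08 on the log2 scale after long-term PM2.5 and did not pass (adjusted p = 0.869 in limma), nor did it corrected (-0.13, adjusted p = 0.558). After short-term PM2.5 it fell by 0.65 (adjusted p = 0.00699 in limma) and was at -1.06 corrected. Sftpc and Etv5 (-0.67, adjusted p = 0.0117 in limma) were the 2 type 2 markers called lower as deposited, and corrected only Sftpc was. Of 7 airway epithelial markers 5 were tested, of which 3 were higher and 0 lower for long-term PM2.5 against PBS, as deposited and corrected. These were the mucin genes Muc5ac (2.81, adjusted p = 1.17e-06 in limma) and Muc5b (2.598, adjusted p = 5.12e-05) and Foxj1, the regulator of ciliated cells (1.47, adjusted p = 5.12e-05). For short-term PM2.5 against PBS 1 airway marker was higher and 1 lower, and corrected 2 were higher and 2 lower. Leukocyte markers summed to 459.7 to 703 TPM in long-term, 379 to 385 TPM in short-term and 232 to 278 TPM in PBS libraries. Of these 6 markers 2 were higher and 0 lower after long-term PM2.5 (2 and 1 corrected). After short-term PM2.5 3 were higher and 0 lower (2 and 0 corrected). Much of the sum was Cd68, at 340 TPM in long-term, 199 in short-term and 87.8 in PBS libraries on average. Ptprc averaged 33.0, 14.1 and 22.8 TPM in the same order and passed in neither comparison with PBS. As TPM is a share, RNA from additional cells lowers the share of all other genes, and its part in these values was not tested. No marker in these lists was at 0 throughout a group.

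**Figure D4:**
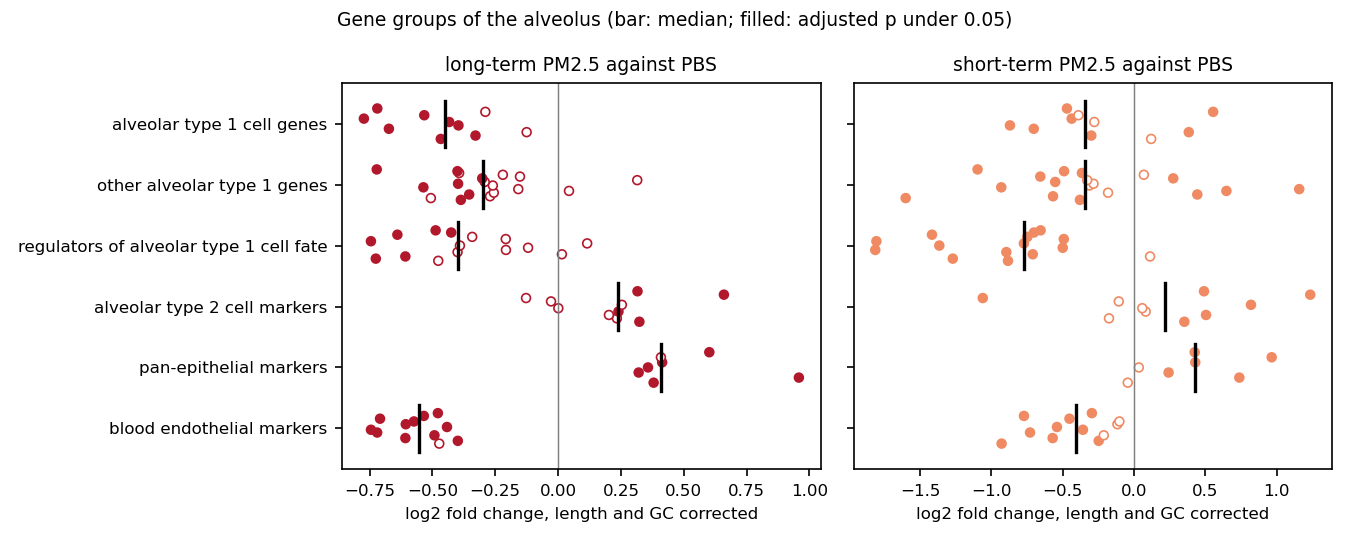
Corrected log2 fold changes of the genes in 6 lists, for long-term PM2.5 against PBS (left) and short-term PM2.5 against PBS (right); each point is a gene, filled where the adjusted p in limma was under 0.05, and the bar is the list's median. For long-term PM2.5 the medians are -0.45 for the 10 type 1 genes, -0.30 for the other type 1 genes and -0.55 for blood endothelial markers, against 0.24 for type 2 and 0.41 for pan-epithelial markers.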

How the data were processed

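Total RNA of whole lung was enriched for mRNA, made into libraries that passed a duplex-specific nuclease (DSN) step, and sequenced on DNBSEQ, per the labels' protocols. The authors deposited a table of TPM values with 1 column per library. HISAT2, Bowtie2, RSEM and DESeq2 are named without role or version, and the build is GRCm38.p6, per the submitters' processing notes. DSN lowers abundant transcripts, which bears on the level of Ager. Column sums differ by at most 1.09 TPM, so read depth is not recoverable.

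Members and gene lists were chosen with earlier results of these data known. The tests took the 13991 genes that had 1 TPM or more in 3 or more of the 9 libraries, and left out 4884. log2(TPM + 1) was fitted with limma 3.58.1 (R 4.3.3) over the 3 groups, with an intensity trend in eBayes, two-sided tests, and p-values adjusted per comparison over every tested gene (Benjamini-Hochberg). A fold change is a difference of group means on that scale and understates the change of low genes. The correction subtracts from each library natural splines in transcript length and GC content, 5 degrees of freedom each, fitted to its difference from the mean of all libraries. Lengths are from GENCODE M21, and 199 tested genes without one were left out. The fit was also run on simulated data with independent noise and the same spread in all groups. Most members spread further in the short-term group, so that run cannot speak for the shared estimate of spread. Named genes are all 10 members, up to 4 passing genes with the smallest p per list and comparison, the first 2 genes of each cell type list, and 5 genes nearest in profile to Ager and Hopx; not all are printed, and Yap1 and Nkx2-1, printed outside this rule, were named after their values were seen. Promoter sequences are from RefSeq, GRCm38.p6. Alternatives are given at the end. Python 3.11.15 drew the figures.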

Additional observations from a re-analysis of the deposited data

Results flagged for a closer look

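Ager, Aqp5 and Pdpn had means as deposited on opposite sides of PBS after long-term and after short-term PM2.5, and the difference between the exposures passed the test. Long-term minus short-term PM2.5 was -0.65 for Ager, with changes from PBS of -0.35 after long-term and 0.30 after short-term PM2.5. It was -0.47 for Aqp5, with -0.13 and 0.34 in the same order, and -0.70 for Pdpn, with -0.06 and 0.64. As deposited, of these 6 changes from PBS the short-term ones of Aqp5 and Pdpn passed by themselves and the other 4 did not, while corrected the long-term change of Ager passed as well (-0.47, adjusted p = 0.0173 in limma). Some of the directions turned: the short-term change of Ager was -0.30 after quantile normalization, where its difference between the exposures was -0.09 (adjusted p = 0.475), and the long-term change of Pdpn was 0.0498 without long-term replicate 3.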

How the results depend on the processing

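All alternatives but the correction without short-term replicate 1, which was chosen after seeing the data, were planned. For long-term PM2.5 against PBS no member was called higher under any alternative run. The number called lower, 1 as deposited, was 8 with array weights (whose iteration stopped before convergence), 8 with the length and GC correction, 9 with the correction and no short-term replicate 1, 6 with the correction and the replicate block, 7 with the 2 groups alone, 3 after quantile normalization, 2 after median-ratio scaling and 0 to 6 with a library left out. Over all genes, 241 lower as deposited became 2246 with array weights, 1787 with the correction, 2918 with the correction and no short-term replicate 1, 1417 with the correction and the block, 1381 with the 2 groups alone, 1157 after quantile normalization, 512 after median-ratio scaling and 132 with the block. With a library left out, 49 to 1005 of all genes were called lower. For short-term PM2.5 against PBS, 2 members higher became 1 after quantile normalization and 1 to 3 with a library left out, and 6 members lower stayed within 4 to 7. Over all genes, 1632 higher and 5636 lower as deposited became 2866 and 8469 with array weights, and 3477 and 3745 after quantile normalization. With a library left out, 1215 to 1957 genes were called higher and 3906 to 7240 lower. Between long-term and short-term PM2.5, 2 higher became 4 with array weights, 1 with the correction, 1 without short-term replicate 1 as well, 1 with the correction and the replicate block, and 2 to 5 with a library left out. The 3 lower became 5 with array weights and 2 to 4 otherwise. Over all genes, 6070 higher and 991 lower as deposited became 9227 and 2118 with array weights. They became 2650 and 3095 with the correction, 2448 and 2942 without short-term replicate 1 as well, and 2464 and 2825 with the correction and the block. With a library left out, 3917 to 8057 genes were called higher and 615 to 1111 lower.

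Directions turned in 15 of the cases. For long-term PM2.5 against PBS this was Pdpn without long-term replicate 3 (0.0498; from -0.1572 to 0.0498 over the libraries left out). For short-term PM2.5 against PBS these were Ager after quantile normalization (-0.30) and Igfbp2 after median-ratio scaling (0.22) and without short-term replicate 2 (0.0958; from -0.2678 to 0.0958 over the libraries left out). Between long-term and short-term PM2.5, Hopx turned after quantile normalization (0.0604), Rtkn2 with the correction (-0.25, -0.29 without short-term replicate 1 and -0.25 with the block), Cav1 with the correction and no short-term replicate 1 (-0.13), Akap5 with the correction (-0.0284, and -0.0284 with the block) and Emp2 with the correction (-0.15, -0.25 without short-term replicate 1, -0.15 with the block) and after median-ratio scaling (-0.0032). The cause was not tested.

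With the replicate number as a block the counts were 1 lower for long-term PM2.5 against PBS, 2 higher and 5 lower against PBS after short-term PM2.5, and 2 higher and 3 lower between the exposures. The labels do not say whether libraries with the same number share more than that number. Correlations of their deviations from the group means ran from -0.29 to 0.26. With 3 libraries a group, these cannot decide whether a batch was shared. Median-ratio scaling moved the median change of all genes for short-term PM2.5 against PBS from -0.34 to -0.05, and relative to the median as deposited Pdpn was at 0.99, Aqp5 at 0.68, Ager at 0.64, Hopx at -0.02 and Clic5 at -1.36.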

Other observations

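Genes around 2 members that are not described above were measured in the same fits. Of 9 insulin-like growth factor genes besides Igfbp2, 1 was higher and 2 were lower for long-term PM2.5 against PBS. Over all tested genes 9.51% were called higher and 1.72% lower (13.1% and 13.0% corrected). For short-term PM2.5 against PBS 2 were higher and 4 lower, where 11.7% of all tested genes were called higher and 40.3% lower (24.0% and 26.1% corrected). Corrected, 1 was higher and 3 were lower after long-term PM2.5, and 3 were higher and 2 lower after short-term PM2.5. Igf1 rose by 1.29 after long-term and by 0.97 after short-term PM2.5 (adjusted p = 0.00126 and 0.00203 in limma), and Igfbp3, a main carrier of insulin-like growth factors in blood, fell by 1.15 after long-term and by 2.39 after short-term PM2.5 (adjusted p = 0.0236 and 0.000264). Of 8 further water channel and ion transport genes 2 were higher for long-term PM2.5 against PBS, where 9.51% of all tested genes were called higher. These were the water channel genes Aqp3 (0.84, adjusted p = 0.00845 in limma) and Aqp4 (0.90, adjusted p = 0.0236). Both were low, with 3.15 TPM in long-term and 1.30 in PBS lungs for Aqp3, and 5.16 and 2.29 for Aqp4. Aqp5 averaged 326 TPM in long-term and 356 TPM in PBS lungs, and its change of -0.13 did not pass. Aqp1, the water channel of endothelium, fell by 0.92 after short-term PM2.5 (adjusted p = 0.00197 in limma; -0.71 corrected, adjusted p = 0.00117). Of the 8 genes, Aqp1 alone was called lower there as deposited, where 40.3% of all tested genes were. Corrected, 3 of the 8 were higher and 1 lower in each comparison with PBS. The corrected shares of all genes were 13.1% and 13.0% after long-term PM2.5, and 24.0% and 26.1% after short-term PM2.5.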
